A study of Mus musculus with 80 samples.

Results

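The nuclear-encoded subunits of the respiratory chain were examined in mouse livers injured by carbon tetrachloride (CCl4). Members were the genes whose symbol marks a subunit of complex I (the Nduf a, b, c, s and v genes), complex II (Sdha to Sdhd), complex III (Uqcr genes), complex IV (Cox4 to Cox8 genes) or complex V, the ATP synthase (Atp5 genes). This gave 85 of the 14560 genes in the table, with 39 in complex I, 4 in complex II, 8 in complex III, 15 in complex IV and 19 in complex V. The rule used names alone and no measured value. All 85 passed the filter on low values, although 8 had a mean below 100 normalized counts, and 4 of these are annotated processed pseudogenes (Ndufs5-ps, Cox6c2, Atp5l2-ps and Atp5pb-ps).

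The livers came from 8-week-old female C57BL/6J mice, either Adamts12-/- (KO, lacking a secreted metalloproteinase) or wild type (WT). Each mouse had a single intraperitoneal dose of CCl4, 0.3 ml per kg at 3% in olive oil, or the olive oil vehicle alone, and was killed 4 h, 12 h, 24 h or 7 days later. Every one of the 16 combinations of genotype, treatment and time had 5 livers, and each liver gave 1 poly(A)-selected RNA library (80 in all). KO and WT groups were otherwise handled alike in the labels, which name no litter or pairing. The labels do not say in which cells Adamts12 was deleted.

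Of the 80 libraries, 2 stood with the other treatment and were left out of every result unless stated. The immediate-early gene Atf3 had 44.9 normalized counts in the library labelled KO 12 h CCl4 replicate 5, while the used libraries of that group had 14132 to 17241. It had 13051 in the library labelled KO 12 h vehicle replicate 1, while the used libraries of that group had 38.6 to 127. The KO 12 h groups therefore held 4 livers each. Adamts12 itself checked the genotype labels only weakly, because its counts were low: at 24 h after CCl4 it averaged 11.5 ± 2.84 in KO livers and 58.1 ± 18.4 in WT livers (SD, n = 5 each; log2 difference -2.21, limma adjusted p = 0.0423), and at 12 h after CCl4 the groups overlapped, with 14.4 ± 10.1 in KO and 15.1 ± 3.16 in WT livers. Read totals ranged between 18.6 and 64.5 M per library (median 32.7 M), of which the members took 0.696% to 1.367%. All 7 hepatocyte markers were abundant in every group, with summed levels of at least 1490415 normalized counts per liver.

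The inner mitochondrial membrane carries 5 complexes that pass electrons from NADH and succinate to oxygen and use the resulting proton gradient to make ATP. Complex I oxidises NADH, complex II oxidises succinate, complex III passes electrons from ubiquinol to cytochrome c, complex IV reduces oxygen, and complex V makes ATP. Most of their subunits are encoded in the nucleus and imported, while a few core subunits are made inside the organelle from mitochondrial DNA, except in complex II, which is wholly nuclear. Hepatocytes are rich in mitochondria, and CCl4 is converted to toxic radicals in them, mostly around the central vein, by the cytochrome P450 enzyme Cyp2e1.

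Promoters of these genes are known for binding sites of NRF1, GABPA and other ETS factors, YY1, CREB and the oestrogen-related receptors, which coordinate respiratory gene expression. Of the 77 members with a mean of at least 100 normalized counts, 65 (84.4%) matched a RefSeq promoter window of 300 bases (250 before and 50 after the start, GRCm38.p6). At least 1 of 6 searched motifs, on either strand, lay in the window of 41 of these 65 members (63.1%), against 25.4% of all 27025 genes and 41.8% of the 8177 other genes with a mean of at least 100. The NRF1 core TGCGCA was in 27.7% of members, against 8.79% of all genes and 16.1% of abundant genes, and the longer NRF1 palindrome, which does not itself hold the core and may overlap it, in 7.69%, against 1.07% and 2.38%. The YY1 letters AAGATGGC were in 15.4% of members, against 3.19% and 5.6%. The ETS letters CCGGAAG were in 26.2%, against 9.93% and 21.0%, so the members lay closer to the abundant genes there. The CREB letters TGACGTCA were in 6.15% of members, against 2.03% and 3.58%, and the oestrogen-related receptor letters AAGGTCA in 12.3%, against 5.38% and 4.19%. These matches are a description of letters and do not show that a factor bound. The 250 bases before the start are printed for 4 members with falls described below, 1 from each of 4 complexes. These 4 were chosen by hand and each holds a searched motif, so they do not stand for all members. Ndufv1, Ndufv3, Atp5c1 and Atp5d, which also fell, held none of the 6 motifs in their windows. The printed stretches all lie on the minus strand of GRCm38.p6 and are written 5′ to 3′ along the gene. Capitals mark TGCGCA for Sdha (chr13:74350241-74350490) and Ndufa9 (chr6:126849145-126849394), the palindrome for Atp5k (chr5:108434400-108434649) and TGACGTCA for Uqcrfs1 (chr13:30545317-30545566).
Sdha: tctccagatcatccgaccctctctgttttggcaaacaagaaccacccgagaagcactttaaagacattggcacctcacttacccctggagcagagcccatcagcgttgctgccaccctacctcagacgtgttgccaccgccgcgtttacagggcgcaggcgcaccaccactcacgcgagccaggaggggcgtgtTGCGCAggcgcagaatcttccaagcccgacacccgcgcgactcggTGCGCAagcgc
Ndufa9: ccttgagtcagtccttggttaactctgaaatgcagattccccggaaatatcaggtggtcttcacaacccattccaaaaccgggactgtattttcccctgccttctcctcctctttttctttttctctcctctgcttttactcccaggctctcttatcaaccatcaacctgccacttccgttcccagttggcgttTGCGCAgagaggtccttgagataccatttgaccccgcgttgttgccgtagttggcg
Uqcrfs1: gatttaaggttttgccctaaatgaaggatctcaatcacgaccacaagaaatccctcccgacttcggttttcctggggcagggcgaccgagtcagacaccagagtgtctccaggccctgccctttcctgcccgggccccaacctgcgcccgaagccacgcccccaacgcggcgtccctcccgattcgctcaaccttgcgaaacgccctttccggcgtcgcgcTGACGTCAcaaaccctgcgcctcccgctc
Atp5k: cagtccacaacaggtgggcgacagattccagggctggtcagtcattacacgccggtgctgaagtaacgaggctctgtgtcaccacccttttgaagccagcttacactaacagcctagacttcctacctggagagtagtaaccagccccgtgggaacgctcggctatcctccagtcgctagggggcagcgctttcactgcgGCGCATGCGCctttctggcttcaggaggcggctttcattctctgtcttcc

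Per kilobase of exon and averaged over the 80 libraries, the highest levels were those of Cox6a1 (9874.8 normalized counts per kilobase), Cox8a (8072.4), the catalytic ATP synthase subunit Atp5b (7850.1) and Cox6b1 (7525.8). The length used was that of all annotated exons of a gene merged, so long annotated exons lower a value whether or not they are used. The lowest level among members with a mean of at least 100 was that of Ndufb2 (28.7 per kilobase, over 5628 bases of merged exon). Isoforms known mainly from other tissues or conditions were also low: the testis isoform Cox6b2 had 12.9 per kilobase, the hypoxia-induced Ndufa4l2 36.6 and the muscle isoform Cox7a1 73.5. Cox4i2, Cox6a2 and Cox8b were not in the table. Copies elsewhere in the genome limit some values: 37 members shared no 50-base word with another gene, while the 4 pseudogenes and Cox5b-ps shared over 50% of theirs, and Atp5g2 shared 38.3%, Uqcrb 25.4% and Cox7c 22.1%, so that reads of these genes may be split with their copies.

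The first comparison asked how CCl4 changed the subunits in each genotype at each time. Subunit mRNAs fell widely between 4 h and 24 h in both genotypes. No member was called higher at any of these times, although some differences were positive, up to 1.45 in WT livers at 4 h. At the same times 21.1%, 23.6% and 21.1% of all genes were called higher in KO and 23.1%, 29% and 26.2% in WT livers. In KO livers 68 of 85 members were lower at 4 h, 50 at 12 h and 41 at 24 h, and in WT livers 56, 46 and 39 were lower at the same times, each at a limma adjusted p under 0.05 over all 14558 genes tested. These shares, 80%, 58.8% and 48.2% in KO and 65.9%, 54.1% and 45.9% in WT livers, compare with 17.7%, 23.1% and 23% of all genes called lower in KO livers and 20.5%, 29.4% and 25% in WT livers. The median log2 difference of the members, CCl4 minus vehicle, was -0.55 at 4 h, -0.55 at 12 h and -0.38 at 24 h in KO livers and -0.50, -0.43 and -0.39 in WT livers, where the median of all genes lay between -0.05 and 0.04. A median of -0.55 is a level of 0.682 times that of vehicle livers in the KO group at 4 h. At 7 days no member was called in either genotype. At that time 0.309% of all genes were called higher and 0.385% lower in KO livers, and 0.0275% in each direction in WT livers. An unadjusted p under 0.05 was held by 1 member in KO and 52 members in WT livers. The share of all genes at that cut was not counted.

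Some of these counts moved with the libraries or the scaling used. With both left-out libraries put back, 4 members instead of 50 were lower in KO livers at 12 h, with a median of -0.25. Without KO 24 h vehicle replicate 1, the 24 h count in KO livers was 27. Without the mice numbered below 7000, which leaves 1 WT 24 h vehicle liver, the WT median at 24 h was -0.70. Under quantile normalization the counts were 22 in KO and 25 in WT livers at 24 h, and at 4 h the split of all called genes in KO livers was 2454 higher and 3090 lower, against 3077 higher and 2574 lower with the deposited scaling.

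**Figure D1:**
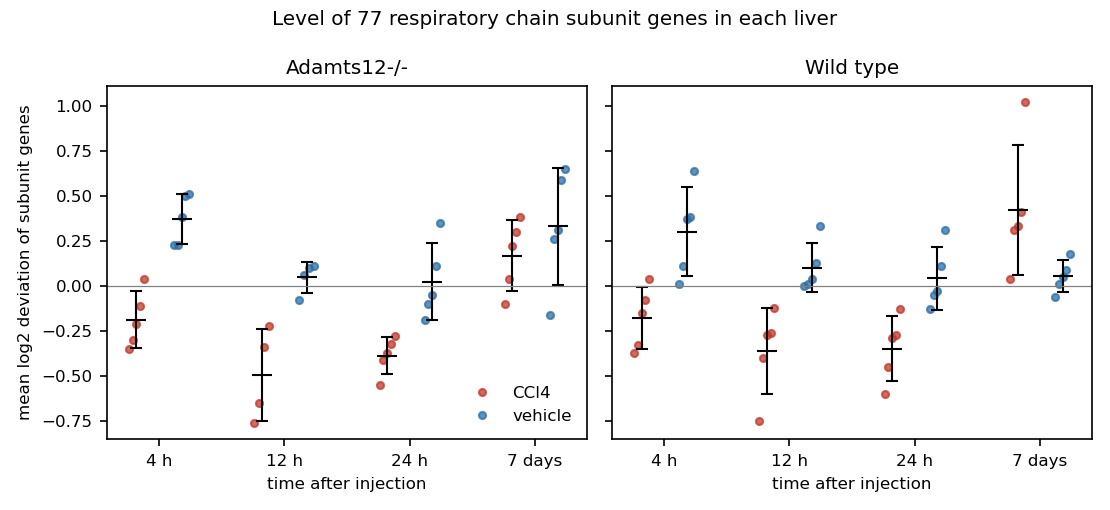
Mean log2 level of the members with a mean of at least 100 in each liver, as a deviation from each gene's own mean over the 78 libraries used (vertical axis, log2), by time after injection, with CCl4 left of vehicle and bars for group mean and SD. In KO livers the 4 h CCl4 group averaged -0.19 and its vehicle group 0.37, and in WT livers the 7-day CCl4 group averaged 0.42 and its vehicle group 0.05 with 1 CCl4 liver at 1.02.

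The fall was seen liver by liver in the mean level of the members. At 4 h the mean was -0.19 ± 0.16 in KO CCl4 livers and 0.37 ± 0.14 in KO vehicle livers (SD, n = 5 each), with the ranges -0.35 to 0.04 and 0.23 to 0.51 apart. In WT livers at 4 h it was -0.18 ± 0.17 after CCl4 and 0.30 ± 0.25 after vehicle, and the highest CCl4 liver at 0.04 lay just above the lowest vehicle liver at 0.01. At 12 h it was -0.49 ± 0.25 in KO CCl4 livers and 0.05 ± 0.09 in KO vehicle livers (n = 4 each), and -0.36 ± 0.24 in WT CCl4 livers and 0.10 ± 0.14 in WT vehicle livers (n = 5 each), without overlap in either genotype. At 24 h it was -0.39 ± 0.10 in KO CCl4 livers and 0.02 ± 0.21 in KO vehicle livers, and -0.35 ± 0.18 in WT CCl4 livers and 0.04 ± 0.17 in WT vehicle livers. Counted per gene, every CCl4 liver lay below every vehicle liver for 55, 46 and 29 members in KO at 4 h, 12 h and 24 h (64.7%, 54.1% and 34.1%, against 13.5%, 17.5% and 12.5% of all genes) and for 33, 36 and 31 members in WT livers (38.8%, 42.4% and 36.5%, against 15.6%, 16.4% and 16% of all genes).

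The RNA of cell type markers moved at the same times. Summed hepatocyte markers (7 of 7 in the table, none at 0) ranged from 1868533 to 3322181 normalized counts in KO CCl4 livers and from 4164883 to 4952021 in KO vehicle livers at 12 h, and from 1490415 to 3025310 in WT CCl4 livers and from 3995343 to 5404650 in WT vehicle livers. All 7 were lower in both genotypes at 12 h. At 24 h 5 in KO and 4 in WT livers were lower, and at 4 h 2 in each genotype. Pericentral hepatocyte markers were lower for 6 of 7 genes in KO and WT livers at 4 h. The shares of all genes lower at 4 h, 12 h and 24 h were 17.7%, 23.1% and 23% in KO and 20.5%, 29.4% and 25% in WT livers. Infiltrating monocyte and macrophage markers (7 of 7 in the table) were higher for 7 genes in KO and 5 in WT livers at 24 h. Over all genes 21.1% in KO and 26.2% in WT livers were higher. The sums of this list were 6801 to 20283 in KO CCl4 livers and 1557 to 4180 in KO vehicle livers. The summed markers of Kupffer cells, the resident macrophages, had medians of 7887 in KO CCl4 and 7859 in KO vehicle livers at 24 h. In WT livers the Kupffer cell medians were 11519 after CCl4 and 13819 after vehicle. The part of these shifts in the subunit results was not tested. In bulk tissue, fewer hepatocytes and less subunit RNA per hepatocyte cannot be told apart. The same holds for the marker RNAs, which can change in number of cells or in level per cell.

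**Figure D2:**
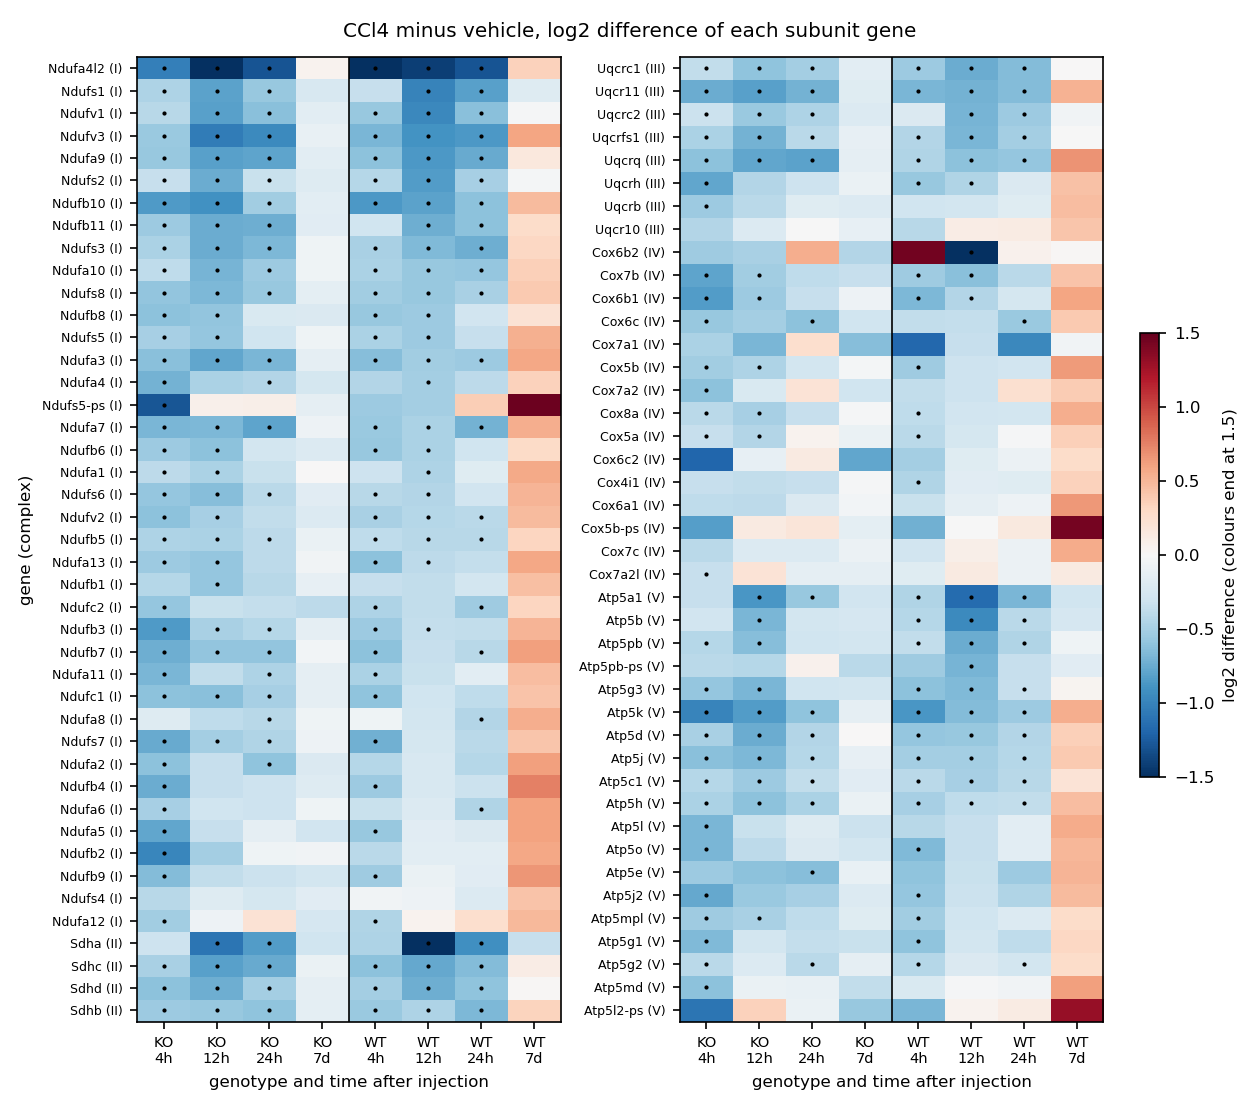
Log2 difference, CCl4 minus vehicle, of each of the 85 members (rows, with the complex in brackets) in KO and WT livers at each time (columns). Blue is lower and red higher after CCl4, and a dot marks a limma adjusted p under 0.05. Dots mark 36 of 39 complex I members in KO and 28 in WT livers at 4 h, 1 of 15 complex IV members in each genotype at 24 h, and no dot stands at 7 days.

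Of the members 24 (28.2%) were called lower in all 6 comparisons at 4 h, 12 h and 24 h, against 6.35% of all genes, and 8 (9.41%) in none, against 54.7% of all genes. The 24 were 12 complex I genes, 3 complex II genes (Sdhb, Sdhc and Sdhd), 4 complex III genes (Uqcrc1, Uqcrfs1, Uqcrq and Uqcr11), 5 complex V genes (Atp5c1, Atp5d, Atp5h, Atp5j and Atp5k) and no complex IV gene. The 8 never called were Cox6a1, Cox7c, Cox7a1, Cox6c2 and Cox5b-ps of complex IV, Ndufs4, Uqcr10 and Atp5l2-ps. Of these Cox7a1, Cox6c2, Cox5b-ps and Atp5l2-ps had means below 100 normalized counts.

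Complex I, the largest complex, fell in both its matrix and its membrane arm. In KO livers 36, 26 and 23 of its 39 members were lower at 4 h, 12 h and 24 h, and in WT livers 28, 23 and 19. The shares of all genes lower were 17.7%, 23.1% and 23% in KO and 20.5%, 29.4% and 25% in WT livers. Ndufv1, which binds NADH and the flavin cofactor, had 2108, 2145, 2638 and 3833 normalized counts in the KO CCl4 livers at 12 h, against 4015, 4560, 4865 and 4927 in KO vehicle livers. In WT livers it had 1706, 1764, 2026, 2594 and 3840 after CCl4, against 4302, 4367, 4417, 4537 and 4646 after vehicle. Every CCl4 liver lay below every vehicle liver, at 0.568 times the vehicle level in KO (log2 -0.82, SE 0.16, limma adjusted p = 2.61e-05) and 0.511 times in WT (log2 -0.97, SE 0.14, adjusted p = 4.32e-08). Ndufs1, the large iron-sulphur subunit beside it, averaged 2387 ± 677 in KO CCl4 livers and 4058 ± 168 in KO vehicle livers at 12 h (SD, n = 4 each), and 1878 ± 542 in WT CCl4 livers and 3639 ± 187 in WT vehicle livers (n = 5 each). The WT groups did not overlap, at 0.502 times the vehicle level, while at 4 h its WT groups overlapped and the difference of -0.34 had an adjusted p of 0.0595.

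Ndufv3, an accessory subunit of the NADH-oxidising module, was among the 4 largest falls in KO livers at 12 h and 24 h and in WT livers at 24 h. At 24 h its counts were 1073, 1180, 1263, 1365 and 1591 in KO CCl4 livers, against 1906, 2190, 2631, 2700 and 3204 in KO vehicle livers. In WT livers they were 1025, 1043, 1051, 1342 and 1774 after CCl4, against 1882, 2222, 2229, 2359 and 2400 after vehicle. The groups did not overlap, with log2 differences of -0.95 in KO (SE 0.17, limma adjusted p = 8.01e-06) and -0.86 in WT livers (SE 0.17, adjusted p = 3.2e-05). Ndufa9, an accessory subunit near the ubiquinone site, was 0.577 times the vehicle level in KO (adjusted p = 7.8e-06) and 0.592 times in WT livers at 24 h (adjusted p = 1.21e-05). Its counts were 1493, 1658, 1948, 2002 and 2064 in KO CCl4 livers, against 2576, 2948, 3338, 3350 and 3687 in KO vehicle livers.

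Accessory subunits of the membrane arm led the earliest fall. Ndufb10 had 2095, 2176, 2512, 2665 and 2716 counts in KO CCl4 livers at 4 h, against 3580, 4080, 4250, 4736 and 5450 in KO vehicle livers. The WT livers had 1874, 2038, 2121, 2324 and 2533 after CCl4, against 3329, 3570, 3990, 4086 and 4835 after vehicle. Both pairs of groups were apart, at log2 differences of -0.85 in KO (limma adjusted p = 2.46e-05) and -0.86 in WT livers (adjusted p = 1.79e-05). Ndufb2 fell by 0.98 and Ndufb3 by 0.85 on the log2 scale in KO livers at 4 h, Ndufb2 at a low level of 114 ± 49.5 after CCl4 and 203 ± 20.0 after vehicle. Ndufs7, a core iron-sulphur subunit, fell by 0.72 in WT livers. By contrast Ndufs4, an accessory subunit known from Leigh syndrome, was not called at any time, with differences of -0.42, -0.19 and -0.26 in KO and -0.05, -0.08 and -0.20 in WT livers at 4 h, 12 h and 24 h. Ndufa12, another accessory subunit, fell at 4 h, by 0.52 in KO and 0.45 in WT livers, and had differences of 0.22 and 0.25 at 24 h, which did not pass.

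The Ndufa4 pair differed in abundance. Ndufa4, now placed in complex IV by biochemical work, averaged 4725 ± 616 in KO CCl4 livers and 7677 ± 576 in KO vehicle livers at 4 h (log2 -0.71, limma adjusted p = 0.00162), and 5460 ± 1497 in WT CCl4 livers and 7469 ± 2387 in WT vehicle livers (log2 -0.44, adjusted p = 0.0515). Its rare paralogue Ndufa4l2, which hypoxia induces in other cells, was lower at all 3 early times in both genotypes. At 4 h it had 8.17 to 22.8 counts in KO CCl4 livers (mean 15.1 ± 6.12), against 20.9 to 36.1 in KO vehicle livers (mean 30.6 ± 5.72, SD, n = 5 each). Among WT livers the counts were 6.88, 7.97, 8.32, 13.6 and 18.7 after CCl4, against 34.6, 42.3, 43.4, 63.6 and 151 after vehicle. The WT groups were apart (log2 -2.36, adjusted p = 4.65e-06) and the KO groups overlapped (log2 -1.03, adjusted p = 0.0463). At 24 h in WT livers 4 CCl4 livers had 6.11 to 11.7 counts and the other had 168.

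Complex II, which is also the succinate step of the citric acid cycle, held the largest fall of an abundant member. Sdha, the flavoprotein that oxidises succinate, had 5090, 6621, 6777 and 12215 counts in KO CCl4 livers at 12 h, against 14417, 14815, 15116 and 17754 in KO vehicle livers. Counts in WT livers were 3629, 3660, 5095, 5667 and 11089 after CCl4, against 14340, 14911, 15160, 15266 and 16361 after vehicle. The groups did not overlap in either genotype, and 1 CCl4 liver in each stood well above the others. The level was 0.47 times that of vehicle in KO (log2 -1.09, SE 0.22, limma adjusted p = 3.64e-05) and 0.35 times in WT livers (log2 -1.51, SE 0.20, adjusted p = 1.22e-09). At 4 h Sdha had not passed the test, at -0.31 in KO (adjusted p = 0.214) and -0.46 in WT livers (adjusted p = 0.0512). At 24 h it was lower in both, at -0.84 in KO (adjusted p = 0.000371) and -0.92 in WT livers (adjusted p = 8.18e-05), but under quantile normalization the KO value was -0.39 with an adjusted p of 0.0972. Sdhb, the iron-sulphur subunit, and the membrane anchors Sdhc and Sdhd were lower at all 3 times in both genotypes. At 24 h Sdhb had 1997 to 3060 counts in KO CCl4 livers (median 2654), against 3361 to 4997 in KO vehicle livers (median 3812), and 1887 to 3501 in WT CCl4 livers (median 2808), against 3652 to 5680 in WT vehicle livers (median 4189). The 12 h call of Sdhb was lost without KO 12 h CCl4 replicate 2 (adjusted p = 0.0570), KO 12 h vehicle replicate 3 (0.0592) or WT 12 h CCl4 replicate 5 (0.0932).

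Most complex III members were lower at each of the 3 early times. In KO livers 7, 5 and 5 of 8 were lower at 4 h, 12 h and 24 h, and in WT livers 5, 6 and 5. Over all genes 17.7%, 23.1% and 23% were lower in KO and 20.5%, 29.4% and 25% in WT livers. Uqcrc1, a core protein of the complex, had 3610, 3862, 4031 and 6076 counts in KO CCl4 livers at 12 h, against 5858, 6066, 7098 and 7118 in KO vehicle livers. In WT livers it had 3180, 3184, 3690, 4190 and 5810 after CCl4, against 5740, 6629, 6638, 6855 and 6949 after vehicle. In each genotype the highest CCl4 liver passed the lowest vehicle liver, and the differences were -0.60 in KO (limma adjusted p = 0.000227) and -0.74 in WT livers (adjusted p = 4.31e-07). Uqcrfs1, the Rieske iron-sulphur protein, averaged 3455 ± 1036 in KO CCl4 livers and 5542 ± 966 in KO vehicle livers at 12 h (n = 4 each), and 3168 ± 693 in WT CCl4 livers and 5056 ± 541 in WT vehicle livers (SD, n = 5 each). The small subunit Uqcrq fell by 0.80 on the log2 scale in KO livers at 24 h, to 3128, 4452, 4529, 5157 and 5737 counts after CCl4, against 6070, 7072, 7549, 8863 and 10530 after vehicle. Uqcr10, another small subunit, was not called, with differences of -0.44, -0.21 and -0.01 in KO and -0.42, 0.11 and 0.12 in WT livers at the 3 times. Under quantile normalization Uqcrc1 and Uqcrfs1 in KO livers and Uqcrfs1 in WT livers lost their 24 h calls (adjusted p = 0.205, 0.453 and 0.0930).

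Complex IV showed the shortest fall by its calls. In KO livers 8, 5 and 1 of its 15 members were lower at 4 h, 12 h and 24 h (53.3%, 33.3% and 6.67%). In WT livers 6, 3 and 1 were lower (40%, 20% and 6.67%), and the member at 24 h was Cox6c in both genotypes. Of all genes 17.7%, 23.1% and 23% were lower in KO and 20.5%, 29.4% and 25% in WT livers. Cox5b-ps, Cox6b2, Cox6c2 and Cox7a1 averaged 6.3 to 55.8 counts, where a fall is harder to call. Whether its course differs from that of the other complexes was not tested. Cox5a, a regulatory subunit, had 3282, 3354, 3483, 4250 and 4646 counts in KO CCl4 livers at 4 h, against 4137, 4295, 5003, 5168 and 5631 in KO vehicle livers. The WT livers had 3097, 3215, 3448, 3852 and 3948 after CCl4, against 4097, 4253, 4581, 5168 and 5332 after vehicle. The WT groups were apart and the KO groups overlapped, and the KO call (log2 -0.35, limma adjusted p = 0.0468) was lost under TMM scaling (adjusted p = 0.0692) and without any of 6 of its 10 libraries, at adjusted p up to 0.128. By 24 h Cox5a averaged 3112 ± 362 in KO CCl4 livers and 3030 ± 523 in KO vehicle livers, with a 95% interval of the log2 difference of -0.25 to 0.34, and in WT livers the interval was -0.31 to 0.27.

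Cox4i1, the liver form of subunit 4, fell in WT livers at 4 h, to 8002 ± 849 after CCl4, against 10886 ± 919 after vehicle (log2 -0.45, limma adjusted p = 0.0149), while in KO livers its difference of -0.35 had an adjusted p of 0.0653. Cox6b1, at the cytochrome c docking side, fell by 0.84 in KO livers at 4 h, to 3885 ± 500 after CCl4, against 6957 ± 1094 after vehicle, and by 0.67 in WT livers, to 4168 ± 657, against 6600 ± 923. Cox8a fell at 4 h in both, by 0.41 in KO and 0.38 in WT livers. Among the subunit 7a genes, Cox7a2 averaged 2512 ± 383 in KO CCl4 livers and 3825 ± 420 in KO vehicle livers at 4 h, and Cox7a1 was rare at 28.0 ± 9.71 and 39.2 ± 9.82 and not called at any time. Cox7a2l fell by 0.34 in KO livers at 4 h (limma adjusted p = 0.0246) and stood at 0.21 at 12 h (limma adjusted p = 0.223). At 12 h Cox7a2l had 2169, 2423, 2729 and 2775 counts in KO CCl4 livers, against 1954, 1994, 2357 and 2441 in KO vehicle livers. Its CCl4 effect in KO livers was higher at 12 h than at 4 h by 0.54 (SE 0.19, adjusted p = 0.0277). Cox6a1, the most abundant member per length, was not called, at -0.38, -0.39 and -0.22 in KO and -0.33, -0.14 and -0.08 in WT livers.

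**Figure D3:**
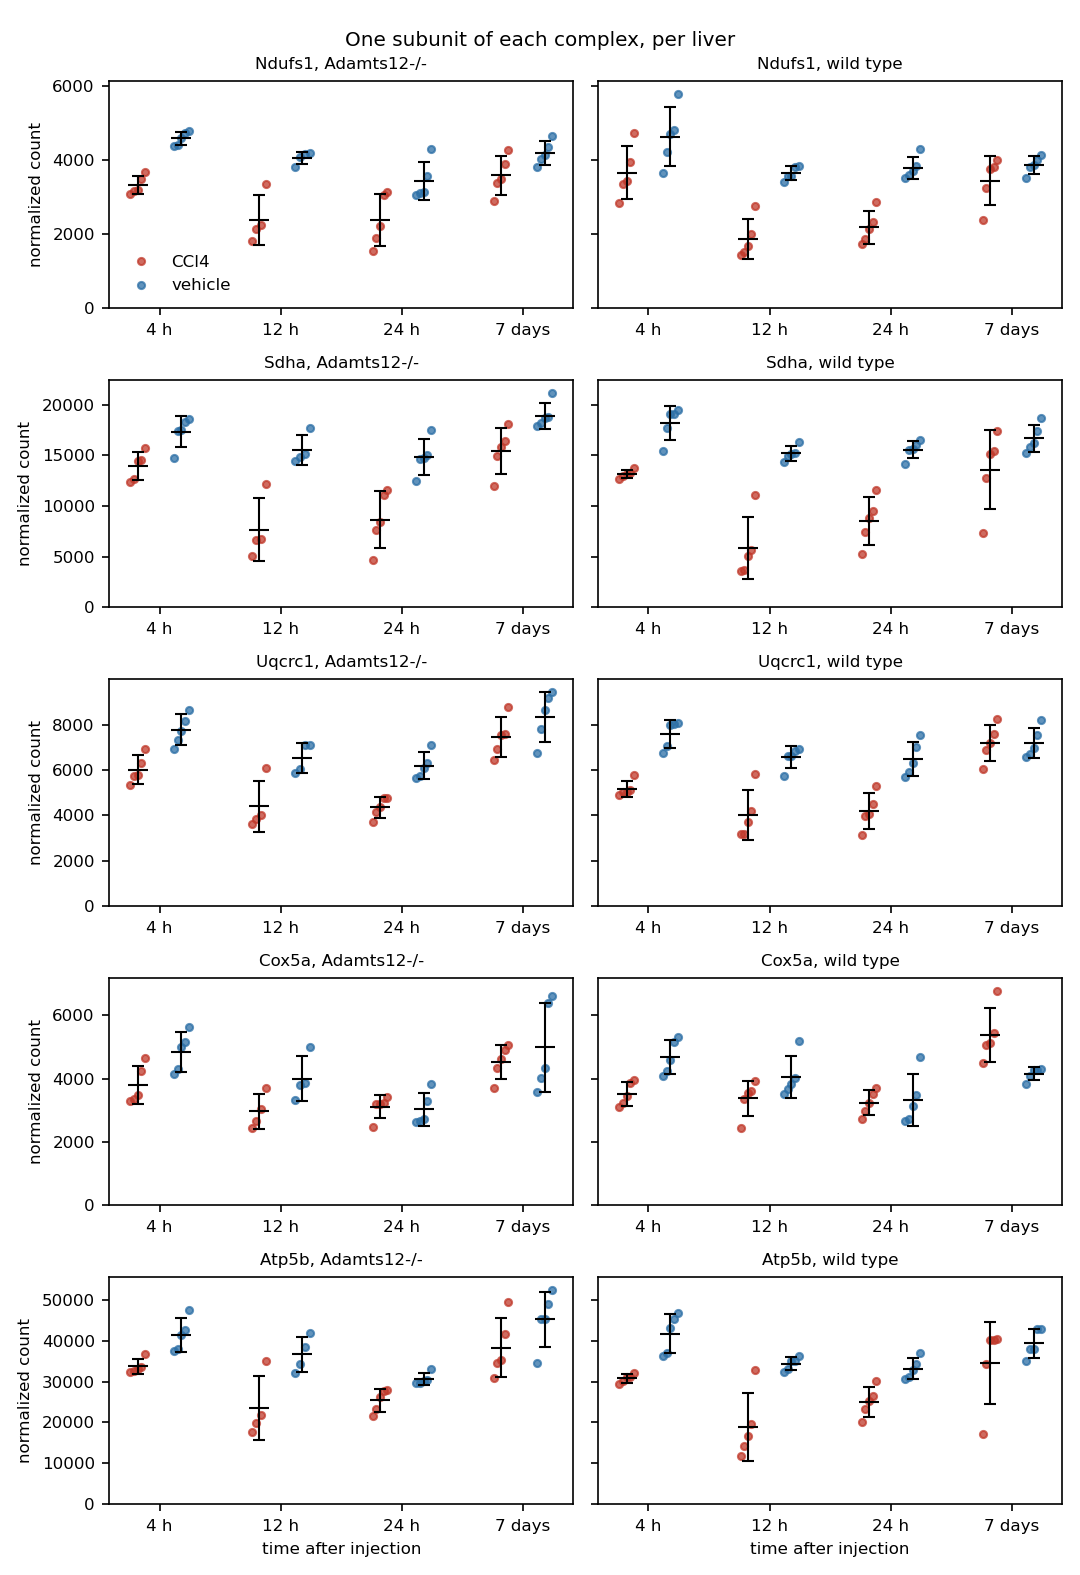
Normalized counts (vertical axes, each starting at 0) of Ndufs1, Sdha, Uqcrc1, Cox5a and Atp5b, 1 subunit of each complex, in every liver used, with KO livers in the left column and WT livers in the right, CCl4 left of vehicle at each time, and bars for mean and SD. Sdha drops furthest at 12 h (7676 in KO CCl4 and 5828 in WT CCl4 livers, against 15525 and 15208 after vehicle), and Cox5a is level at 24 h.

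Complex V fell at all 3 early times. In KO livers 14, 10 and 8 of 19 members were lower, and in WT livers 14, 10 and 10. The shares of all genes lower were 17.7%, 23.1% and 23% in KO and 20.5%, 29.4% and 25% in WT livers. Atp5k, the small subunit e of the membrane part that helps the synthase form dimers, was the largest fall among abundant members at 4 h. It had 1244 to 1744 counts in KO CCl4 livers (mean 1461 ± 194), against 2414 to 3238 in KO vehicle livers (mean 2893 ± 366, SD, n = 5 each). Among WT livers the counts were 1320, 1322, 1606, 1768 and 1937 after CCl4, against 2035, 2349, 3248, 3274 and 3912 after vehicle. No CCl4 liver reached a vehicle liver, at 0.505 times the vehicle level in KO (log2 -0.99, SE 0.19, limma adjusted p = 1.56e-05) and 0.545 times in WT livers (log2 -0.87, SE 0.19, adjusted p = 8.98e-05).

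With the deposited scaling, the catalytic head had its largest differences at 12 h. Atp5a1, the alpha subunit, had 9270, 9825, 10716 and 17333 counts in KO CCl4 livers at 12 h, against 18218, 20119, 22035 and 23387 in KO vehicle livers (log2 -0.87, limma adjusted p = 6.93e-05). Counts in WT livers were 6175, 7291, 8259, 9880 and 15671 after CCl4, against 18250, 19621, 19895, 20246 and 21199 after vehicle (log2 -1.15, adjusted p = 1.57e-08). The groups were apart in both genotypes, and at 4 h Atp5a1 was lower in WT livers (-0.45, adjusted p = 0.0201) while the KO difference of -0.34 had not passed (adjusted p = 0.0988). Atp5b, the beta subunit that makes ATP, averaged 23620 ± 7865 in KO CCl4 livers and 36742 ± 4296 in KO vehicle livers at 12 h (log2 -0.68, adjusted p = 0.00207), and 18999 ± 8332 in WT CCl4 livers and 34388 ± 1611 in WT vehicle livers (log2 -0.95, adjusted p = 2.1e-06). In each genotype 1 CCl4 liver, at 35152 in KO and 32965 in WT, lay within the vehicle range. Atp5b at 4 h was -0.29 in KO (adjusted p = 0.17) and -0.43 in WT livers (adjusted p = 0.0319), and the WT call was lost without any of 5 libraries (CCl4 replicates 2 and 4 and vehicle replicates 2, 4 and 5) and under quantile normalization (adjusted p = 0.0979). Atp5b depended on the scaling: under quantile normalization its difference was 0.01 in KO livers at 12 h (adjusted p = 0.974) and 0.32 in WT livers at 24 h (adjusted p = 0.0935), where the deposited scaling gave -0.41 (adjusted p = 0.0349). The 24 h WT call was also lost without any of 4 libraries (CCl4 replicates 1 and 3 and vehicle replicates 1 and 5, adjusted p = 0.0595 to 0.112), and Atp5a1 lost its KO 12 h call under quantile normalization (-0.36, adjusted p = 0.0939) and its 24 h calls (adjusted p = 0.879 in KO and 0.355 in WT livers).

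Of the 3 genes for the c ring, which encode the same mature protein, Atp5g3 had the highest mean over the 80 libraries. It had 8404.2 normalized counts, against 5339.4 for Atp5g1 and 1469.2 for Atp5g2. Per kilobase of merged exon the levels were 3853.4, 1087.0 and 877.1, where the 4912 bases annotated for Atp5g1 lower its value. Atp5g3 fell at 4 h and 12 h in both genotypes. At 12 h it averaged 6051 ± 1464 in KO CCl4 livers and 9547 ± 1228 in KO vehicle livers (log2 -0.68, limma adjusted p = 0.000484), and 5446 ± 1241 in WT CCl4 livers and 8472 ± 785 in WT vehicle livers (log2 -0.66, adjusted p = 9.87e-05). Atp5g1 fell by 0.66 in KO and 0.60 in WT livers at 4 h and did not pass at 12 h, with differences of -0.28 and -0.27. Atp5g2, which shares many words with its copies, fell by 0.41 in KO and 0.43 in WT livers at 4 h. Atp5d and Atp5c1 of the central stalk fell at all 3 times in both genotypes, Atp5d by 0.75 in KO and 0.57 in WT livers at 12 h.

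**Figure D4:**
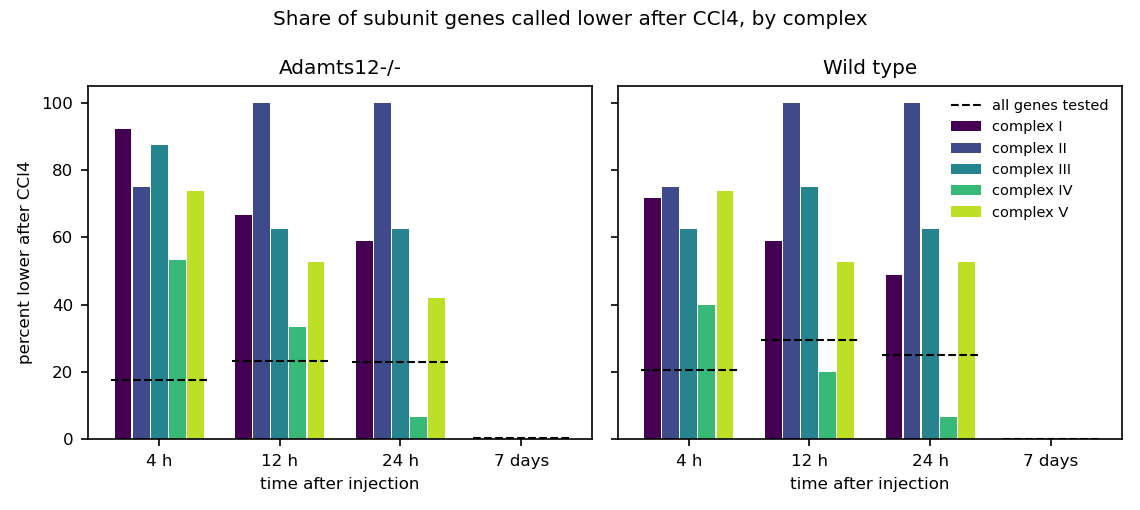
Percent of the members of each complex called lower after CCl4 (limma adjusted p under 0.05; vertical axis from 0) at each time, in KO livers on the left and WT livers on the right. Complex II reaches all 4 members at 12 h and 24 h in both genotypes, complex IV is down to 1 of 15 at 24 h, and every complex is at 0 at 7 days. The dashed lines mark the share of all genes tested.

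A second comparison followed the CCl4 effect from each time to the next. Between 4 h and 12 h few members changed further: in KO livers Sdha fell by a further 0.78 (SE 0.30, limma adjusted p = 0.0488) and Cox7a2l moved up, and in WT livers Sdha fell by a further 1.05 (adjusted p = 0.00266), Atp5a1 by 0.69, Ndufs1 by 0.65, Uqcrc2, a core protein of complex III, by 0.48, and the rare Cox6b2 by 3.5. These counts, 2 of 85 in KO and 5 in WT livers, compare with 22.1% and 30.6% of all genes called at this step. The KO count ran between 0 and 5 when single libraries were left out, highest without KO 12 h CCl4 replicate 1 and lowest without KO 12 h CCl4 replicate 3 or 4 or KO 12 h vehicle replicate 3 or 5, and the WT count between 3 and 9, lowest without WT 12 h CCl4 replicate 1 and highest without WT 12 h CCl4 replicate 2. Between 12 h and 24 h no member was called in either genotype, against 5.06% of all genes in KO and 12.6% in WT livers. At unadjusted p under 0.05 there were 2 members in KO and 4 in WT livers, with the share of all genes not counted. Without WT 12 h CCl4 replicate 2, 5 members were called in WT livers at that step, and without KO 12 h CCl4 replicate 1, 1 member in KO livers.

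From 24 h to 7 days some members' CCl4 effect moved up, and the KO and WT steps were not tested against each other. In KO livers 8 members (9.41%) were called higher (Ndufv3, Ndufa7, Ndufa9, Ndufa10, Ndufs3, Sdhc, Uqcrq and Atp5d, by 0.45 to 0.84 on the log2 scale), below the 16.1% of all genes called higher. Ndufv3 gained most of these, 0.84 (SE 0.25, limma adjusted p = 0.00646). The count in KO livers was 5 without KO 24 h vehicle replicate 1 and 4 without KO 7-day vehicle replicate 3. In WT livers 63 members were called higher, 74.1% of them, against 19.1% of all genes, with Ndufv3 at 1.45, Uqcrq at 1.26, Ndufa7 at 1.25 and Ndufb10 at 1.10. Without the 12 mice whose label numbers are below 7000, the WT count was 4, but 4 of 5 WT 24 h vehicle mice and 4 of 5 WT 7-day CCl4 mice are among them, so that each of these groups then holds 1 liver, which is assumed to vary like the other groups. Over the 4 times together, the CCl4 effect changed for 14 members (16.5%) in KO livers, against 51.7% of all genes, and for 77 (90.6%) in WT livers, against 62.9% (limma F test, adjusted p under 0.05). The KO count was 6 without KO 7-day vehicle replicate 3 and 9 without KO 7-day CCl4 replicate 2, 0 with all 80 libraries and 41 under quantile normalization, and the WT count was 34 without the mice numbered below 7000.

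At 7 days the median difference of the members was below 0 in KO and above 0 in WT livers, without a called member. In the mean level of the members, CCl4 and vehicle livers overlapped in both genotypes. KO CCl4 livers ran from -0.10 to 0.38 and KO vehicle livers from -0.16 to 0.65. The median difference was -0.15 in KO livers, with 82 of 85 members below 0, and 0.43 in WT livers, with 73 of 85 above 0. The median of all genes was 0 in KO and -0.01 in WT livers. All members were read in the same livers, so these signs are not separate observations. The share of all genes on each side of 0 was not counted. The mean level of the members was 0.17 ± 0.20 in KO CCl4 livers and 0.33 ± 0.32 in KO vehicle livers, and 0.42 ± 0.36 in WT CCl4 livers and 0.05 ± 0.09 in WT vehicle livers (SD, n = 5 each). In the WT CCl4 group the 5 livers were at 0.04, 0.31, 0.33, 0.41 and 1.02, and in the WT vehicle group at -0.06 to 0.18. Uqcrq shows the weight of the highest liver: it had 6234, 7569, 7912, 8838 and 19181 counts in WT CCl4 livers, against 4845, 5602, 5617, 6259 and 6424 in WT vehicle livers (log2 0.67, SE 0.18, limma adjusted p = 0.0754). Sdha and Atp5b went the other way in value, at -0.35 (adjusted p = 0.359) and -0.25 (adjusted p = 0.459). The KO median was -0.27 without KO 7-day vehicle replicate 3 and -0.06 without replicate 1. Without WT 7-day CCl4 replicate 3, the highest liver, the median was 0.22, and without replicate 4, the lowest, it was 0.55 and 34 members were called higher.

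Other measures moved with the WT livers at 7 days. Of the WT CCl4 mice at 7 days 4 of 5 had a label number below 7000, as did 2 of 5 vehicle mice, while all KO mice were numbered above it, and without these mice the median was 0.28, with 1 CCl4 liver left. A length measure was taken in each liver from the log2 deviations of genes from their own means. It was the median over 1395 genes with short transcripts minus the median over 1456 genes with long ones. Short meant up to 1424 bases of merged exon, with members and ribosomal protein genes left out, and long meant from 9567 bases. The measure averaged 0.49 ± 0.43 in WT CCl4 livers and -0.03 ± 0.13 in WT vehicle livers at 7 days. The liver with the highest member level was also highest here, at 1.22. Within the members with a mean of at least 100, the 39 at or below the median exon length of 1675 bases had a median difference of 0.46 with 38 above 0, and the 38 longer ones a median of 0.36 with 29 above 0. The same measure differed at 4 h, at -0.41 ± 0.14 in KO CCl4 livers and 0.12 ± 0.22 in KO vehicle livers, and -0.39 ± 0.14 in WT CCl4 livers and 0.04 ± 0.20 in WT vehicle livers, and there 33 of the 39 shorter and 33 of the 38 longer members were lower in KO and 27 and 28 in WT livers. At 12 h 22 shorter and 27 longer members were lower in KO and 19 and 24 in WT livers, and at 24 h 17 and 23 in KO and 12 and 26 in WT livers. At 12 h the length measure was -0.09 ± 0.23 in KO CCl4 livers and -0.03 ± 0.15 in KO vehicle livers. In WT livers it was 0.16 ± 0.25 after CCl4 and 0.10 ± 0.19 after vehicle. At 24 h it was -0.05 ± 0.17 and 0.12 ± 0.29 in KO and -0.05 ± 0.19 and 0.10 ± 0.17 in WT livers, CCl4 first. At 7 days it was 0.23 ± 0.28 in KO CCl4 livers and 0.31 ± 0.38 in KO vehicle livers. The part of mouse number and of transcript length in these results was not tested further.

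The third comparison asked whether loss of Adamts12 changed the response. No member was called for a difference in CCl4 effect, KO minus WT, at any time, and over all genes 1 was called at 4 h, none at 12 h, none at 24 h and 1 at 7 days (0.00687%, 0%, 0% and 0.00687%). At unadjusted p under 0.05 there were 1, 0, 0 and 56 members at 4 h, 12 h, 24 h and 7 days. The share of all genes at that cut was not counted, so these numbers do not set the members apart from other genes. The 7-day median of these differences was -0.59, with Ndufb9 at -0.94 (SE 0.27), Atp5o at -0.76 (SE 0.22) and Atp5md at -0.99 (SE 0.31), each with a limma adjusted p of 0.306. For Sdha at 12 h the difference between genotypes was 0.42 (SE 0.30, unadjusted p = 0.156). A p above the threshold does not show that the genotypes respond alike.

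Directly between genotypes, 1 member was called in 8 comparisons. Cox6b2, the testis isoform of subunit 6b, had 1.36, 1.89, 2.99, 5.07 and 15.5 counts in KO CCl4 livers at 4 h, against 4.13, 38.5, 43.7, 81.9 and 92.8 in WT CCl4 livers (log2 -2.93, SE 0.73, limma adjusted p = 0.032), where 0.584% of all genes were called. The groups overlapped, and the call was lost without any 1 of 8 of the 10 libraries. Cox6b2 varied widely in WT livers: 1 vehicle liver had 137 counts at 4 h and 1 had 181 at 12 h, while the other 4 of each group had 8.03 and 7.5 at most. Over all genes, 0.0206%, 0.0137% and 0% were called between genotypes in CCl4 livers at 12 h, 24 h and 7 days, and 0.343%, 0%, 0% and 0.055% in vehicle livers at the 4 times. In CCl4 livers 3, 6, 0 and 19 members had an unadjusted p under 0.05 between genotypes at 4 h, 12 h, 24 h and 7 days. In vehicle livers there were 2, 0, 1 and 20, and the share of all genes at that cut was not counted.

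The vehicle livers also varied with the time of killing. Across the 4 vehicle groups 33 members (38.8%) were called in KO livers and 10 (11.8%) in WT livers (limma F test, adjusted p under 0.05). Both shares lay below those of all genes, 41.7% and 38.9%. Of the members 8 were in both sets, among them Atp5c1, Sdhb, Cox5a and Uqcrb, and the share of all genes in both was not counted. Sdhb averaged 6815 ± 1021, 4298 ± 898, 3923 ± 641 and 6690 ± 1337 in KO vehicle livers at 4 h, 12 h, 24 h and 7 days, and 6776 ± 1052, 4372 ± 410, 4391 ± 778 and 5344 ± 566 in WT vehicle livers. Cox5a averaged 4847 ± 623, 4002 ± 702, 3030 ± 523 and 4986 ± 1407 in KO vehicle livers. The comparisons above therefore set each CCl4 group against the vehicle group of its own time. The WT count ran between 5 (without WT 24 h vehicle replicate 2 or 3) and 24 (without WT 4 h vehicle replicate 1).

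**Figure D5:**
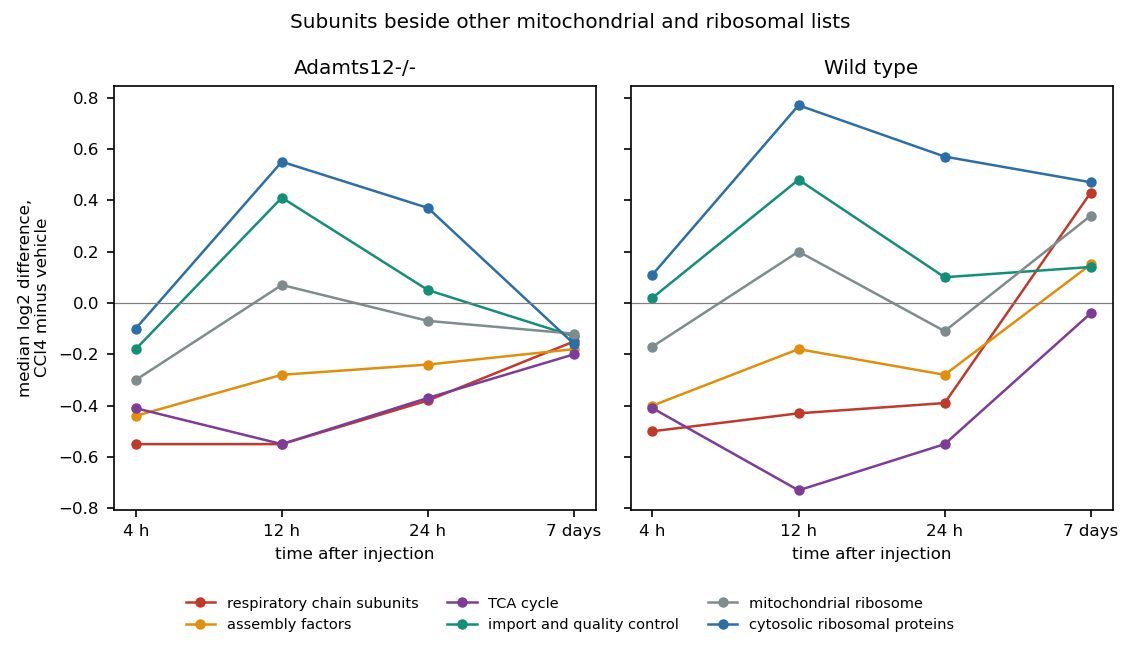
Median log2 difference, CCl4 minus vehicle (vertical axis), of the 85 members and 5 other gene lists at each time, in KO livers on the left and WT livers on the right. The members and the citric acid cycle (TCA) list stay below 0 at 4 h to 24 h, while cytosolic ribosomal proteins reach 0.55 in KO and 0.77 in WT livers at 12 h.

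Other genes of the pathway, from fixed lists, did not move as a block. At 4 h, 12 h and 24 h 17.7%, 23.1% and 23% of all genes were lower in KO and 20.5%, 29.4% and 25% in WT livers. Those higher were 21.1%, 23.6% and 21.1% in KO and 23.1%, 29% and 26.2% in WT livers. The list counts were not tested against these shares. Of the 13 subunits encoded by mitochondrial DNA, only mt-Nd6 was called, in KO livers at 4 h (log2 -1.25, limma adjusted p = 0.0285). mt-Co1, the catalytic subunit of complex IV, had differences of -0.33, -0.09 and -0.44 in KO and -0.43, 0.00 and -0.37 in WT livers at 4 h, 12 h and 24 h, with an SE of at least 0.29. A p above the threshold does not show that these mitochondrial transcripts were level. They were also measured unevenly: mt-Co1 averaged 738132.8 normalized counts over the 78 libraries, but mt-Co2 53 and mt-Atp8 14.3. The libraries were poly(A)-selected, and the weight of that selection on this list, mt-Nd6 included, was not tested. Assembly factors, which build the complexes, were lower for 27, 16 and 19 of 47 in KO and 25, 18 and 21 in WT livers and higher for 0, 5 and 2 and 1, 9 and 3. Nubpl, which loads iron-sulphur clusters into complex I, fell by 1.48 in KO and 1.76 in WT livers at 24 h, Tmem126b by 0.84 and 0.89 at 4 h, and the copper chaperone Sco1 rose by 0.68 and 0.86 at 12 h. Of 14 TCA cycle genes, 9, 11 and 8 were lower in KO and 9, 12 and 11 in WT livers, led by Idh3a, a subunit of isocitrate dehydrogenase (-1.24 in KO and -1.07 in WT livers at 4 h) and Suclg2, a subunit of succinyl-CoA ligase (-1.23 in KO and -1.36 in WT livers at 12 h). Malate dehydrogenase Mdh2 rose by 0.67 in KO and 0.56 in WT livers at 12 h.

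Electron carriers and their makers were split. Of 20 cytochrome c and coenzyme Q genes, 6, 10 and 10 were lower in KO and 8, 11 and 13 in WT livers, and 2, 7 and 5 and 1, 6 and 4 were higher. Etfdh, which feeds electrons from fatty acid oxidation to ubiquinone, fell by 1.75 in KO and 2.09 in WT livers at 12 h, and Coq8b rose by 1.26 and 1.41. Import and quality control genes went mostly up at 12 h, with 14 of 26 higher and 3 lower in KO and 17 higher and 3 lower in WT livers. The chaperonins Hspd1 and Hspe1 rose by 1.15 and 1.82 in KO and by 1.80 and 2.76 in WT livers, and the protease subunit Clpx fell by 1.70 in KO and 1.42 in WT livers at 24 h. Mitochondrial ribosome genes were lower for 33 of 78 in KO and 21 in WT livers at 4 h. At 12 h 11 were higher in KO livers, a smaller share than the 23.6% of all genes. In WT livers 31 were higher at 12 h, against 29% of all genes. Cytosolic ribosomal proteins, short transcripts like many members, were higher for 51 and 31 of 73 in KO and 70 and 55 in WT livers at 12 h and 24 h, with none lower.

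Some regulators of respiratory genes rose at the times when members fell. Nrf1, whose motif was searched above, rose by 0.80, 1.59 and 0.59 in KO and by 0.86, 1.72 and 0.86 in WT livers at 4 h, 12 h and 24 h, with limma adjusted p between 1.35e-17 and 0.000194. Of 19 regulators tested, 8, 5 and 7 were higher and 3, 3 and 3 lower in KO livers. In WT livers 10, 9 and 8 were higher and 4, 3 and 5 lower. Of all genes 21.1%, 23.6% and 21.1% were higher and 17.7%, 23.1% and 23% lower in KO livers. The WT shares of all genes were 23.1%, 29% and 26.2% higher and 20.5%, 29.4% and 25% lower. The regulator counts were not tested against these shares. The corepressor Nrip1 rose by 2.25 in KO and 2.42 in WT livers at 4 h, Myc by 5.60 and 5.38 at 12 h, and the oestrogen-related receptor Esrra fell by 0.70 in KO and 1.02 in WT livers at 4 h. Nothing here ties these regulators to the subunits, and their part in the fall was not tested.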

How the data were processed

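Poly(A)-selected, strand-specific RNA libraries of 80 livers were sequenced (TruSeq Stranded mRNA, NovaSeq, per the labels' protocols). The submitters' processing notes name STAR, HTSeq, DESeq2 and GRCm38, without versions. The authors deposited normalized counts per gene (a signal scale: whole reads divided by 1 factor per library), and 100.0% of values were whole multiples of that factor within 0.01. From these, log2(normalized count + 1) was fitted here with limma 3.58.1 in R 4.3.3, with 16 group means over 78 libraries, a trended variance, and Benjamini-Hochberg adjustment within each comparison over the 14558 genes with at least 10 in at least 5 libraries. Calls are at an adjusted p under 0.05. Fold changes are on the log2(value + 1) scale, which understates those of low genes. Marker and pathway lists were counted in the same fit. The script was tested on simulated data.

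Members, gene lists and tests were chosen with earlier results of these data known. Genes named are 10 set core subunits, the isoform families, the 4 largest rises and falls per comparison among called members with a mean of at least 100, up to 10 called members with the smallest adjusted p in other tests, and every member of a count of 5 or fewer. Others were picked after their values were seen. The labels give replicate numbers but no pairing, and p-values measure the spread between livers. Equal numbers did not mark paired livers, since deviations of equally numbered livers correlated between -0.27 and 0.31. Alternatives covered scaling, filter, pseudocount, variance model, samples fitted, the mice numbered below 7000 and each library left out.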

Additional observations from a re-analysis of the deposited data

Results flagged for a closer look

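Of 176 groups of 4 or 5 livers tested, 12 had 1 liver whose gap to its nearest neighbour was a large part of the range of the group, and chance gives about 1 in 20. High values were those of Ndufv1 at 6270 normalized counts in KO 7-day CCl4 replicate 3, Sdha at 11089 in WT 12 h CCl4 replicate 2 and at 21142 in KO 7-day vehicle replicate 5, and Uqcrc1 at 5794 in WT 4 h CCl4 replicate 5. Uqcrc1 at 6076 and Uqcrfs1 at 4989 were high in the same liver, KO 12 h CCl4 replicate 1. Cox4i1 was high at 22733 in WT 7-day CCl4 replicate 3, where Atp5b was low at 17135. Atp5b was high at 33140 in KO 24 h vehicle replicate 5. Low values were those of Uqcrc1 at 5740 in WT 12 h vehicle replicate 5, Uqcrfs1 at 2962 in WT 24 h CCl4 replicate 3 and Cox5a at 2485 in KO 24 h CCl4 replicate 4.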

How the results depend on the processing

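The fall at 4 h kept its direction under the 11 other settings and the leave-outs, with medians between -0.63 and -0.52 in KO and between -0.57 and -0.41 in WT livers when single libraries were left out. With all 80 libraries the KO count was 4 at 12 h (median -0.25), 0 for the step from 4 h to 12 h, 3 for the step from 24 h to 7 days and 0 for the effect over times, and the vehicle counts over times were 51 in KO and 6 in WT livers. Under quantile normalization 1 member was higher and 22 lower in KO livers at 24 h and 25 lower in WT livers, the steps from 12 h to 24 h held 1 in KO and 4 in WT livers, and the KO effect over times 41. The 2 reversals were Atp5b under quantile normalization, at 0.01 in KO livers at 12 h and 0.32 in WT livers at 24 h; the cause was not tested. Without the mice numbered below 7000 the WT median at 24 h was -0.70, the interaction at 24 h held 1 member, the genotype tests 0 (CCl4, 4 h) and 1 (vehicle, 24 h), the WT steps 8, 1 and 4 in time order, the WT effect over times 34 and the WT vehicle count 2; this leaves 1 liver each in the WT 24 h vehicle and WT 7-day CCl4 groups, assumed to vary like the others. Cox6b2 was not called between genotypes (0 members) with a minimum of 100 or with the compared groups alone, and that last fit gave 3 for the WT step from 4 h to 12 h and 27 for WT vehicle livers. The KO step from 4 h to 12 h gave 1 without the variance trend. voom on recovered whole reads, chosen after seeing the data, called 1 member higher in WT livers at 4 h.

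With single libraries left out, counts ran from 0 to 1 (WT 4 h, higher), 0 to 1 (CCl4 4 h genotype test), 3 to 9 (WT step from 4 h to 12 h), 5 to 24 (WT vehicle over times), 0 to 5 (WT step from 12 h to 24 h), 0 to 34 (WT 7 days, higher), 0 to 5 (KO step from 4 h to 12 h), 0 to 1 (KO step from 12 h to 24 h), 6 to 21 (KO effect over times), 27 to 47 (KO 24 h, lower) and 4 to 10 (KO step from 24 h to 7 days), and the WT 7-day median from 0.22 to 0.55. Ndufv1 in KO livers at 4 h lost its call without CCl4 replicate 3 or vehicle replicate 5, Uqcrfs1 in WT livers at 4 h without CCl4 replicate 2 and in KO livers at 24 h without vehicle replicate 1. With the replicate number as a block, which does not pair these livers, the KO count was 56 at 12 h and the KO step from 4 h to 12 h 1. A planned count-model test (edgeR) was not run. Depth limits the low genes such as Cox6b2 and Ndufa4l2.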
